A study of Mus musculus with 6 samples.

Results

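Endothelial cells (ECs) in preparations of the proximal pulmonary artery (PA) of old mice were split by whether a transcript of Cdkn1a, the gene of the cell cycle inhibitor p21, was counted in them. The ECs were droplet barcodes with at least 1000 unique molecular identifiers (UMIs, barcodes that each stand for 1 captured RNA molecule), at least 500 genes and at most 20% mitochondrial UMIs. They held at least 3 UMIs of Cdh5, Pecam1, Egfl7, Cldn5 and Tie1 together, and more than 2 times the UMIs of Ptprc, Myh11, Cnn1, Pdgfra, Clec3b, Msln and Scgb1a1. Each cell was then thinned at random to 1000 UMIs, so that deep cells were not called positive for their depth. Cells with at least 1 Cdkn1a UMI left were called Cdkn1a-positive and cells with 0 Cdkn1a-negative. This gave 370 positive and 1240 negative ECs, 1610 of the 8422 cells kept in the libraries of 20, 27 and 28 months and of 10596 kept in all 6 libraries. Cdkn1a and the gate genes chose these cells, so their values are a description and carry no test. The gate also took in cells with 2 or more UMIs of the lymphatic genes Prox1, Mmrn1, Ccl21a and Lyve1 before thinning. Without them 185 of 241 positive and 233 of 294 negative ECs remained at 20 months. At 27 months 25 of 33 and 179 of 247 remained, and at 28 months 85 of 96 and 504 of 699.

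p21 binds cyclin-dependent kinases and holds cells out of the cell cycle. Its gene is a well-known target of the transcription factor p53 and a common marker of cellular senescence, a lasting arrest with secretion of inflammatory factors. Cdkn1a is also induced for short times by serum, growth factors and stress, and in quiet cells that are not senescent. The endothelium is itself made of several kinds of cell, since arteries, veins, capillaries, lymphatics and the lining of the heart chambers each express their own set of genes.

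The series holds 6 libraries of single cells from proximal PAs, 2 of young mice of 3 months and 4 of old mice of 20, 24, 27 and 28 months, each from 1 mouse with no genetic change named in the labels. The arteries were cut out with tissue around them and digested with collagenase and elastase. The labels give the mouse of 28 months as female and that of 27 months as male. They give no sex for the mouse of 20 months, which the study names as male. Its kept cells held 2339 UMIs of Xist beside 192 of Ddx3y, 15 of Uty, 2 of Kdm5d and 1 of Eif2s3y. Those of the male mouse of 27 months held 45 of Xist beside 6014, 2281, 505 and 1893 of these genes. The 3 libraries used here are all old, so nothing below compares ages. The other libraries held 21 gated ECs in all, 13 of them at 24 months, too few to compare.

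Cdkn1a has 2 annotated starts in RefSeq, and both promoters are shown because this gene divided the cells. Promoters of Car4 and Rgcc, capillary genes higher in the positive cells, and of Bmx, an arterial gene lower in them, follow for comparison. Each runs from 250 bases before to 50 after the start, written 5′ to 3′ on the gene's strand, on build GRCm38.p6. Capitals mark, on either strand, the box CCACCC, the AP-1 site TGACTCA, the nuclear receptor site AGGTCA, the GATA site AGATAA, the TATA box TATAAA and single p53 decamers, the units of which a full p53 site has a pair. These motifs can overlap one another.
Cdkn1a, upstream start, chr17:29090729-29091028, plus strand: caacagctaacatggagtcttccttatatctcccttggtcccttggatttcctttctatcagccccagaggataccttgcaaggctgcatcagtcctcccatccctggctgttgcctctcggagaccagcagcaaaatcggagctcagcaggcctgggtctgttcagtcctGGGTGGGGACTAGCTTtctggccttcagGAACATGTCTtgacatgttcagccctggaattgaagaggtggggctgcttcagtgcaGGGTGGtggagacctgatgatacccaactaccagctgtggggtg
Cdkn1a, downstream start, chr17:29093519-29093818, plus strand: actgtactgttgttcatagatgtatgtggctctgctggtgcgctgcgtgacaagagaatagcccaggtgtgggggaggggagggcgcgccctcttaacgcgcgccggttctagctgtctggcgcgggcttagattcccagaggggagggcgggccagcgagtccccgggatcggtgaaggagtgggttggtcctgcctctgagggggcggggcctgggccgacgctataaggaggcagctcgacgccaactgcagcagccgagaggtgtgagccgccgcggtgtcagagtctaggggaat
Car4, chr11:84957504-84957803, plus strand: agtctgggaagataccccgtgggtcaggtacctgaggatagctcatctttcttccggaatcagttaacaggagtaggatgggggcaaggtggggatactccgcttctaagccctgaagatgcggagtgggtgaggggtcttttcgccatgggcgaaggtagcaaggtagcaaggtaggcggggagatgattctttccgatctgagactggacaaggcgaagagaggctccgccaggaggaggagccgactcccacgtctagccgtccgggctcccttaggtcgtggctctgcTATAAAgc
Rgcc, chr14:79301586-79301885, minus strand: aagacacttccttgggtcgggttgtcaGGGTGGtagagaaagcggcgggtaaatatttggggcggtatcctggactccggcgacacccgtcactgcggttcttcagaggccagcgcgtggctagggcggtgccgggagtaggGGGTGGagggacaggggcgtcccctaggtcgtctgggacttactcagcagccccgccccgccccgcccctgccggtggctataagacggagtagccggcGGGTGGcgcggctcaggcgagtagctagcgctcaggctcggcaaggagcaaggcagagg
Bmx, chrX:164258144-164258443, minus strand: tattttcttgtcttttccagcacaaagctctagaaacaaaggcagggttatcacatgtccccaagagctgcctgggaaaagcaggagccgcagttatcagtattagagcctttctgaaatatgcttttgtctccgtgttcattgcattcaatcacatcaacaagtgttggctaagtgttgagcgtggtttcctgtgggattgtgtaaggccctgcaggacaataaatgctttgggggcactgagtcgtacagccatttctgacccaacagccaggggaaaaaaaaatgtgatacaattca

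The upstream Cdkn1a window held 2 CCACCC boxes and 2 p53 decamers, and the downstream window held none of the 6 motifs. The first capital run of the upstream window is a CCACCC box read on the other strand, followed directly by a p53 decamer. Over all 32851 promoters of the table, 31.5% held CCACCC, 8.36% a p53 decamer, 5.2% TGACTCA, 16.3% AGGTCA, 11.2% AGATAA and 13.6% TATAAA. Rgcc, with 3 CCACCC boxes, and Car4, with a TATA box, did not share a motif in these windows. The Bmx window held none. A match of letters is a description and does not show that a factor binds there.

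The share of Cdkn1a-positive ECs differed widely between the libraries. At 20 months 241 of 535 ECs were positive (45.0%, exact 95% binomial interval 40.8 to 49.4), at 27 months 33 of 280 (11.8%, 8.25 to 16.2) and at 28 months 96 of 795 (12.1%, 9.89 to 14.5). These intervals cover counting error only, and with 1 mouse per age they do not separate age, sex and preparation. Before thinning the same shares were 66.7%, 34.3% and 26.9%. RNA free in the suspension also gives UMIs, and it was read from barcodes with under 100 UMIs. At its Cdkn1a level, 184, 70.8 and 57.4 UMIs per 1000000 (UPM) at 20, 27 and 28 months, 1000 UMIs of free RNA alone would make 16.8%, 6.84% and 5.58% of cells positive. The EC shares lay above these values in all 3 libraries.

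ECs were the class with the higher share in only part of the libraries. Smooth muscle cells (SMCs), gated and thinned the same way, were positive in 13.1%, 11.9% and 4.53% of cells at 20, 27 and 28 months, and fibroblasts (FBs) in 26.4%, 17.6% and 9.30%. At 27 months the EC share thus lay level with that of SMCs and under that of FBs. Median UMIs before thinning were 2087, 3378.5 and 3457 in ECs and 3212, 9609 and 6758 in SMCs.

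**Figure D1:**
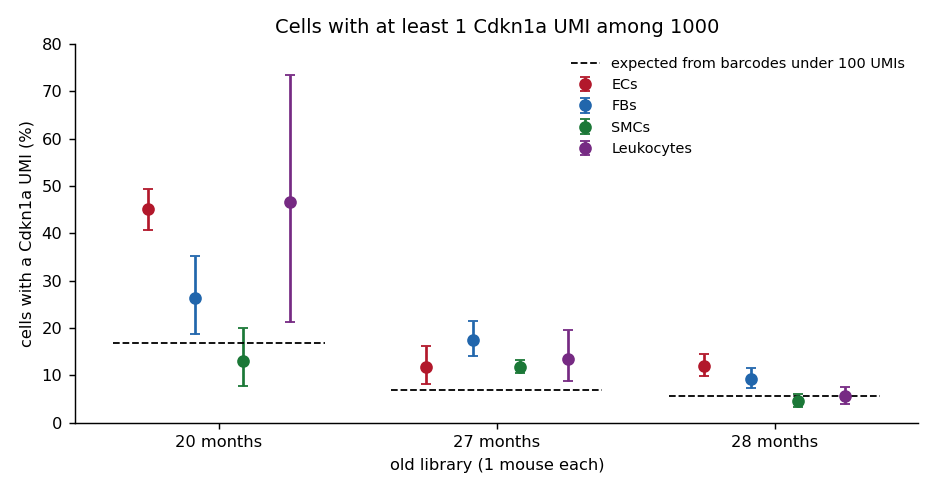
Share of cells (%) with at least 1 Cdkn1a UMI among 1000, by library and cell class, with exact 95% binomial intervals. Dashed lines show the share expected from RNA in barcodes under 100 UMIs. ECs stand at 45.0% at 20 months and near 12% in the other 2 libraries, and SMCs lie at or under the dashed line at 20 and 28 months.

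Most positive cells lay just inside the threshold. Exactly 1 UMI was left in 146 of the 241 positive ECs at 20 months, in 27 of 33 at 27 months and in 68 of 96 at 28 months, and no cell had more than 6. Just outside it, 116 negative ECs at 20 months, 63 at 27 months and 118 at 28 months had held a Cdkn1a UMI that thinning removed. The negative cells are therefore a mixture of cells that held Cdkn1a and cells in which none was counted. The latter numbered 178 at 20 months, 184 at 27 months and 581 at 28 months. A count of 0 does not show that a cell held none. In the sums Cdkn1a stood at 1568, 1182 and 1521 UPM in positive cells at 20, 27 and 28 months.

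Both groups held UMIs of all 5 endothelial genes of the gate. Cdh5, the cadherin of endothelial junctions, stood at 594, 849 and 1273 UPM in the positive sums of 20, 27 and 28 months against 524, 636 and 675 in the negative sums. Cldn5, a tight junction protein, was at 798, 819 and 1920 against 731, 785 and 1082, and Pecam1 at 2789, 3095 and 1742 against 2772, 3798 and 3077. Tie1 was at 245, 212 and 417 against 269, 328 and 328. Egfl7 was lower in positive cells throughout, at 24.9, 30.3 and 20.9 against 68.0, 32.4 and 24.3, on 6, 1 and 2 positive UMIs. Ptprc, the leukocyte gene of the gate, was at 0 in all 3 positive sums. These genes chose the cells and so cannot check the label. Of endothelial markers outside the gate, Esam, a junction protein, was at 486, 394 and 616 UPM in positive and 456, 449 and 431 in negative sums, and at 0 to 31.3 in the sums of FBs and SMCs. Emcn, a sialomucin of the endothelial surface, was at 158, 576 and 563 against 337, 356 and 484, and at 0 to 31.3 in FBs and SMCs. Both markers were thus far above the other gated classes in each sum of ECs. Tek separated the classes less, at 258 UPM in positive ECs and 188 in positive FBs at 20 months. Ramp2 and Eng reached 213 and 188 in FBs, and their lowest value in ECs was 516. Kdr and Vwf reached 23.3 and 33.7 in FBs and SMCs, against lowest values of 37.4 and 730 in ECs. All 24 listed core endothelial genes were tested below, with Kdr called higher and Vwf lower, and their sums were 10627, 13622 and 14418 in positive and 10908, 14838 and 14438 in negative cells. Median UMIs before thinning were close in positive and negative cells at 20 months (2096 and 2073.5) and at 27 months (3293 and 3397), and apart at 28 months (2738 and 3620). Median mitochondrial shares were 1.3% and 1.43%, 1.89% and 2.34%, and 5.70% and 4.86% in the same order.

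For the comparison the thinned counts were summed over the positive and over the negative cells of each library. All levels below are UPM of such a sum without Cdkn1a, which is nearly the number of UMIs per 1000 cells. The 6 sums rest on 33 to 699 cells, so in the smallest, the positive ECs of 27 months, 1 UMI is worth 30.3. The sums were compared within library by edgeR's quasi-likelihood test over 7520 genes, with Benjamini-Hochberg adjustment and an adjusted p under 0.05 as the threshold. Log2 fold changes are positive against negative cells, followed by their standard error (SE). Over all tested genes 45.6% had higher fitted values in positive cells and the rest lower. The counts of gene lists below stand beside that share.

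Among the genes that differed, capillary and lipid uptake genes such as Car4, Kdr, Gpihbp1 and Cd36 were called higher in the positive ECs and Vwf, Bmx, Clu and Cgnl1 lower. The mouse of 20 months did not show this in 3 list sums. These were 3046 UPM for lipid handling in positive and 4269 in negative cells, 16112 and 15789 for arterial genes and 7065 and 6313 for venous genes. Its sums of lung capillary genes (6442 and 6027) and endocardial genes (7364 and 7697) went the way of these calls. The gap was narrower there than at 27 and 28 months. By this test 47 genes were higher in positive ECs (0.625% of those tested) and 27 lower (0.359%). The count hangs on the statistical method. The newer quasi-likelihood method of the same edgeR called 0 genes, with 407 at an unadjusted p under 0.05 against 518 here, and DESeq2 called 1 with 127 at that level. Of the 47 higher genes 21 were higher in all 3 libraries, as were 10.8% of all tested genes, and of the 27 lower genes 24 were lower in all 3, as were 16.9% of all. For some of the 21 the sign at 20 months rests on 1 UMI. Genes needed at least 1 UMI in each library to be tested. Car4, Lnx1, C1qtnf9 and Gm12002 met this at 20 months with 1 positive UMI alone, so their sign there was fixed in advance. The 21 and the 24 were also picked by the joint test on the same sums, so their shared signs are a description. By the signs of the called genes, the mouse of 20 months stood apart in the higher ones. Of these 47 genes 46 were higher in positive cells at 28 months and 42 at 27 months, but 24 at 20 months. Of the 27 lower genes 27 were lower at 28 months, 25 at 27 months and 26 at 20 months. These counts cover genes that the joint test had picked, and the share over all genes was not taken by library. Without the library of 28 months 0 genes were called higher and 3 lower, without that of 27 months 4 and 0, and without that of 20 months 84 and 49.

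Car4, a carbonic anhydrase anchored on the surface of lung capillary endothelium, had the largest fold change among the genes higher in all 3 libraries. It stood at 4.16 in positive and 0 in negative cells at 20 months, at 182 and 28.3 at 27 months, and at 428 and 35.8 at 28 months. The difference at 20 months rests on 1 UMI, and the log2 fold change was 3.30 (SE 0.46, adjusted p = 7.64e-09 in edgeR). Car4 had enough counts to be tested in 15 of the 24 alternative analyses. Kdr, the VEGF receptor through which endothelium is kept alive and made to grow, was at 37.4 and 40.8 at 20 months, at 667 and 182 at 27 months, and at 1346 and 260 at 28 months. Its log2 fold change was 1.69 (SE 0.34, adjusted p = 0.000412 in edgeR), with the positive sum higher in 2 of 3 libraries. Rgcc, a regulator of the cell cycle found in capillary cells, was at 12.5 and 20.4, at 334 and 101, and at 1127 and 176 in the same order (log2 1.94, SE 0.38, adjusted p = 0.000244 in edgeR). All 3 genes were far lower in both groups at 20 months than in the older mice. Of the 28 genes listed for lung capillary identity 17 were tested and 6 were higher by the test (Car4, Gpihbp1, Rgcc, Cd36, Kdr and Fabp4). Over all genes 0.625% were called higher. The median of the 17 was 0.67 on the log2 scale, against -0.05 over all tested genes. None of the 17 was called lower, but 5 had lower values, 2 of them at an unadjusted p under 0.05, and 3 were lower in all 3 libraries. Without the library of 28 months 0 of the 14 then tested were called, and the median was 0.40.

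Genes of fatty acid uptake formed the second group, and 3 of them are also on the capillary list. Gpihbp1, which carries lipoprotein lipase to the capillary lumen, was at 4.16 in positive and 3.40 in negative cells at 20 months, at 212 and 89.1 at 27 months and at 1221 and 206 at 28 months (log2 2.06, SE 0.40, adjusted p = 0.000244 in edgeR). Cd36, a fatty acid transporter, was at 24.9 and 44.2, at 1092 and 308, and at 3151 and 518 (log2 1.70, SE 0.32, adjusted p = 9.01e-05 in edgeR). Both were higher in positive cells of the 2 older mice, and Cd36 was lower in those of the youngest. Tcf15, a transcription factor that with its partner Meox2 drives fatty acid transport in endothelium, was at 4.16 and 3.40, at 212 and 60.7, and at 887 and 87.3 (log2 2.76, SE 0.42, adjusted p = 1.39e-07 in edgeR). At 20 months Gpihbp1 and Tcf15 had 1 UMI each in positive and in negative cells. Fabp4, which binds fatty acids inside the cell, went opposite ways in the libraries, with 141 in positive and 408 in negative cells at 20 months, 5977 and 1563 at 27 months and 17016 and 2396 at 28 months. It passed the test (log2 1.28, SE 0.27, adjusted p = 0.000828 in edgeR), but in only 3 of the 24 alternative analyses. Of 21 listed genes of lipid handling 17 were tested and 7 called higher, the other 3 being Lpl, Pparg and Scarb1, which are named after their values were seen. Their log2 fold changes were 1.52, 1.70 and 1.95. Over all genes 0.625% were called higher. Another 5 of the 17 had lower values, 2 of them at an unadjusted p under 0.05, and 2 were lower in all 3 libraries. The count was 0 without the library of 28 months and 8 without that of 20 months.

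**Figure D2:**
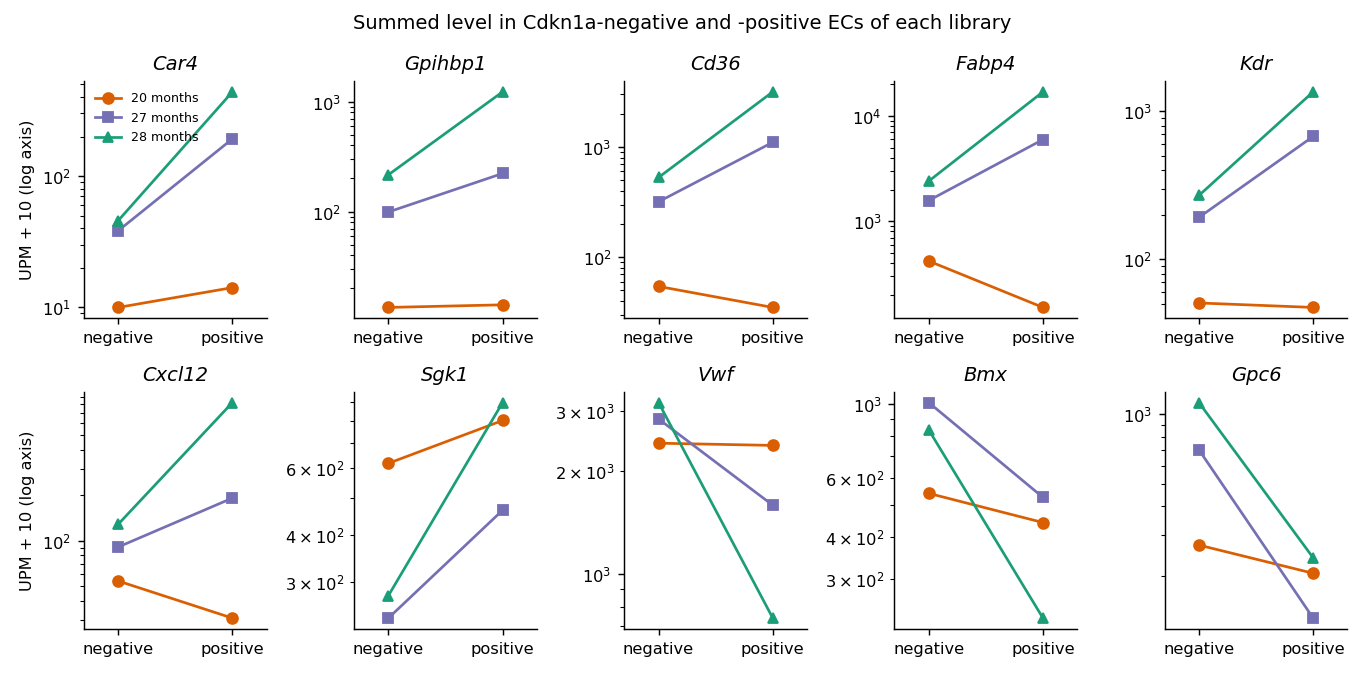
Summed level of 10 genes (UPM plus 10, log axis) in Cdkn1a-negative and -positive ECs, 1 line per library. Lines of the libraries of 27 and 28 months run up for Car4, Gpihbp1, Cd36, Fabp4, Kdr, Cxcl12 and Sgk1 and down for Vwf, Bmx and Gpc6, while those of 20 months lie flatter or run the other way.

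Several other called genes were picked for being higher in positive cells of every library. At 20 months this rests on 1 UMI against 0 for Lnx1, C1qtnf9 and Gm12002, and on 2 against 1 for Nrp2. Lnx1, an E3 ubiquitin ligase, was at 4.16 and 0 at 20 months, at 121 and 16.2 at 27 months and at 511 and 64.4 at 28 months (log2 2.95, SE 0.45). Nrp2, a co-receptor for VEGF and semaphorins best known from veins and lymphatics, was at 8.31 and 3.40, at 243 and 60.7, and at 292 and 70.1 (log2 1.94, SE 0.42). Adgrg1, an adhesion receptor coupled to G proteins, was at 33.2 and 20.4, at 121 and 36.4, and at 240 and 55.8 (log2 1.70, SE 0.43). Rbp7, a retinol-binding protein, C1qtnf9, Gm12002, Ttc7b, Trp53i11 and Spire1 complete the 12 largest rises, with log2 fold changes from 1.81 to 2.62. Trp53i11 is named for its induction by p53, and stood at 20.8 and 3.40, at 91.0 and 32.4, and at 261 and 58.7. Spire1, an actin nucleator, was the exception among the 12. Its level was 133 against 13.6 at 20 months, and its sign turned with 3 of the 4 other random draws of the thinning. Cxcl12, a chemokine of arterial and other endothelium, was higher in 2 of 3 libraries only, at 20.8 and 44.2, at 182 and 81.0, and at 814 and 119 (log2 1.59, SE 0.38, adjusted p = 0.00811 in edgeR). Its call rests on the mouse of 28 months, since the log2 fold change was -0.026 without that library, and it was -0.66 without the cells of capillary genes described below.

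Vwf, Bmx and Clu were called lower in positive cells. Vwf, the clotting protein stored in granules of large-vessel endothelium, was at 2369 in positive and 2405 in negative cells at 20 months, at 1578 and 2834 at 27 months and at 730.3 and 3169 at 28 months (log2 -1.0, SE 0.26, adjusted p = 0.0155 in edgeR). The groups were nearly level at 20 months and farthest apart at 28 months. Bmx, a tyrosine kinase of arterial endothelium, was at 432 and 531, at 516 and 1000, and at 219 and 827 (log2 -1.03, SE 0.29, adjusted p = 0.0470 in edgeR). Clu, a secreted chaperone, was at 1305 and 1595, at 1153 and 1348, and at 156 and 1120 (log2 -0.99, SE 0.28, adjusted p = 0.0380 in edgeR). Of 28 arterial genes 27 were tested, with 1 called higher (Cxcl12) and 2 lower (Bmx and Clu), and 11 of the 27 had higher values. Their sum was 16112 in positive and 15789 in negative cells at 20 months, 18021 and 21421 at 27 months and 8920 and 15805 at 28 months. Of 15 venous genes 11 were tested, 10 of which had lower values in positive cells, with Vwf called lower and Nrp2 higher. The venous sum was 7065 and 6313, 4490 and 6429, and 1982 and 5888 in the same order, so both lists were a little higher in positive cells at 20 months and lower in the other 2 libraries.

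The list of endocardial genes, which mark the lining of the heart chambers and valves, had the lowest median of the lists of endothelial identity. All 11 listed genes were tested, and 10 had lower fitted values in positive cells, as had 4092 of all 7520 tested genes. In all 3 libraries 7 were lower (63.6%, against 16.9% of all tested genes). Their median log2 fold change was -1.0. Only Vwf and Cgnl1 were called. Cgnl1, a protein of cell junctions, was at 224 and 384 at 20 months, at 607 and 802 at 27 months and at 198 and 784 at 28 months (log2 -1.08, SE 0.30, adjusted p = 0.0380 in edgeR). Summed over the list, positive and negative cells held 7364 and 7697 at 20 months, 5916 and 8049 at 27 months, and 1607 and 6571 at 28 months. The difference at 28 months was thus the wide one. Without that library 0 of 10 tested were called, and the median was -0.40.

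**Figure D3:**
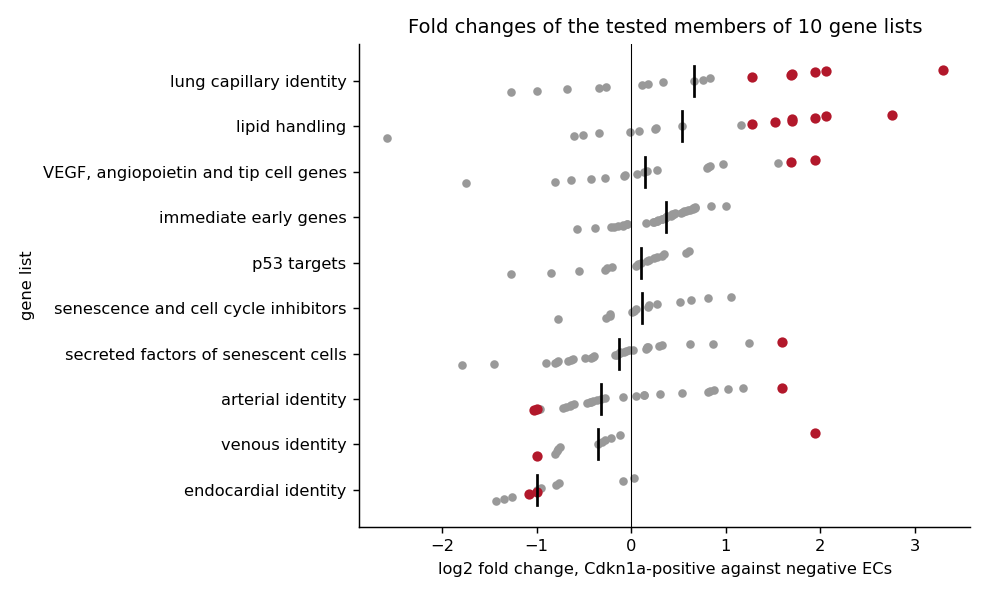
Log2 fold changes of the tested genes of 10 lists in Cdkn1a-positive against negative ECs. Red points passed an adjusted p under 0.05 in edgeR, and vertical bars are list medians, which run from 0.67 for lung capillary genes to -1.0 for endocardial genes.

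The other large falls were genes of very long span. Gpc6, a heparan sulfate proteoglycan of the cell surface, was at 195 and 262 at 20 months, at 121 and 692 at 27 months and at 230 and 1114 at 28 months (log2 -1.56, SE 0.32, adjusted p = 0.000566 in edgeR). Sgcd, a sarcoglycan, was at 87.3 and 184, at 273 and 688, and at 125 and 557 (log2 -1.54, SE 0.34). Rbms3, an RNA-binding protein, was at 54.0 and 163, at 273 and 498, and at 83.5 and 423 (log2 -1.65, SE 0.36). These genes were picked among called genes lower in all 3 libraries, so their shared direction follows from the choice. Chrm3, a muscarinic receptor, Glis3, Kcnt2, Magi2 and Gata6os, with log2 fold changes from -1.85 to -1.48, were of this group of 12 largest falls as well, with Tox at 1 UMI in the positive sums. Ncam2, a neural adhesion molecule, had 0 UMIs in the positive cells of all libraries. Its negative cells held 3, 25 and 22 UMIs at 20, 27 and 28 months. No fold is given, since most positive cells came from 20 months, where negative cells held few. The called lower genes spanned a median of 164 kb in the GENCODE annotation of GRCm38, against 39.5 kb for the called higher genes and 31.7 kb for all tested genes. Of the 27, 18 spanned over 100 kb (66.7%), as did 17 of the 47 higher genes (36.2%) and 18.3% of tested genes. Genes over 100 kb took 12% of UMIs in positive and 13.1% in negative cells at 20 months, 24.2% and 25.4% at 27 months, and 22.9% and 25.2% at 28 months.

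Transcripts of other cells were counted in both groups. The 4 hemoglobin genes, which mark red blood cells, were all called lower. Hbb-bs was at 37.4 in positive and 1252 in negative cells at 20 months, at 30.3 and 12.1 at 27 months and at 5331 and 9908 at 28 months. Over 1% of UMIs were hemoglobin in 1 EC at 20 months, which was negative, in 0 at 27 months and in 62 at 28 months, 6 of them positive. Without such cells 0 of the 4 genes were called and 3 had higher values in positive cells. These cells were picked by the same 4 genes, so the loss of the calls follows from the choice. Ighm, an immunoglobulin gene of B cells named after its value was seen, was called lower with 172 UMIs in negative cells, 169 of them at 28 months, and 1 in positive cells. Summed leukocyte markers ranged from 292 to 478 in positive and from 255 to 587 in negative cells, and those of smooth muscle from 121 to 425 and from 112 to 340. Fibroblast markers summed to 968 in positive and 1323 in negative cells at 20 months, to 1153 and 1158 at 27 months and to 480 and 1113 at 28 months, lower in positive cells of every library. Of 4 tested 0 were called and 2 were lower at an unadjusted p under 0.05, among them Dcn, a matrix proteoglycan (log2 -0.90, SE 0.29, adjusted p = 0.124 in edgeR). No tested marker of leukocytes, fibroblasts, smooth muscle or platelets passed the test. Platelets rest on Pf4 alone, at 0, 1 and 3 UMIs in positive cells at 20, 27 and 28 months. Myh11 of smooth muscle is a gate gene and carries no test. The same holds for Scgb1a1, the only airway epithelial marker with enough counts. No mesothelial marker was tested. The part of these cells in the results was not tested.

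The listed targets of p53 did not pass the test with Cdkn1a. Trp53i11, which is not on the list, was called higher (log2 2.02, SE 0.46, adjusted p = 0.00385 in edgeR). Of 31 listed genes 17 were tested. In positive cells 11 had higher values (64.7%, against 45.6% of all tested genes) and 6 lower. Of the 17, 0 were called, with 0 at an unadjusted p under 0.05 in either direction. Their median log2 fold change was 0.11. No alternative called any of them. The list sums without Cdkn1a were 2174 in positive and 2122 in negative cells at 20 months. They were 1942 and 1887 at 27 months and 1554 and 1454 at 28 months, a little higher in positive cells of all 3 libraries. Mdm2, the ubiquitin ligase that holds p53 down, was at 70.7 and 85.0 at 20 months, at 91.0 and 81.0 at 27 months and at 115 and 50.1 at 28 months (log2 0.35, SE 0.40). Ccng1, a cyclin induced by p53, was the 1 member with higher values in all 3 libraries, at 8.31 and 6.80, 60.7 and 24.3, and 41.7 and 31.5 (log2 0.58, SE 0.76). Polk, Perp, Abcb1a and Phlda3 were lower in all 3 libraries (23.5% of the 17, against 16.9% of all tested genes), with log2 fold changes of -1.27, -0.85, -0.56 and -0.27. Bax was at 0.18. In simulated data of this depth the test found 3% of genes changed 2-fold and 63% of those changed 4-fold, so changes of a few p53 targets up to 2-fold would rarely have been detected.

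Senescence genes gave a similar picture. Of 21 genes of senescence and cell cycle inhibition 14 were tested. In positive cells 10 had higher values (71.4%, against 45.6% of all tested genes) and 4 lower. The list sums without Cdkn1a were 1334 in positive and 1299 in negative cells at 20 months. They were 1396 and 1243 at 27 months and 1534 and 1398 at 28 months, higher in positive cells of all 3 libraries. Of the 14, 0 were called, with 1 at an unadjusted p under 0.05. That gene was Hmgb2, a chromatin protein lost from senescent nuclei, at 79.0 and 47.6, at 60.7 and 16.2, and at 73.0 and 31.5 (log2 1.05, SE 0.48, adjusted p = 0.589 in edgeR). Of 58 secreted factors of senescent cells 32 were tested, Cxcl12 was called higher, a call that rests on the library of 28 months, and none lower, and 21 had lower fitted values. The list sums were 12330.5 in positive and 11095.2 in negative cells at 20 months, 9284 and 7239 at 27 months, and 5216 and 6064 at 28 months. Positive cells were thus lower at 28 months only. Without that library 15 of 26 tested genes had higher values, with a median of 0.08. Gdf15, a stress cytokine, was at 378 and 156 at 20 months, at 0 and 12.1 at 27 months and at 20.9 and 7.15 at 28 months (log2 1.24, SE 0.45, adjusted p = 0.275 in edgeR). Nearly all its UMIs came from the mouse of 20 months.

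Immediate early genes, which cells switch on within minutes of a stimulus such as enzymatic digestion, had higher values with Cdkn1a in most cases without passing the test. Of 38 tested genes 29 had higher values in positive cells and 14 were higher in all 3 libraries (36.8%, against 10.8% of all tested genes), but 0 were called, with 7 at an unadjusted p under 0.05. Their summed level was 37170 in positive and 30112 in negative cells at 20 months, 18719 and 13279 at 27 months and 11413 and 7137 at 28 months. This sum was higher in positive cells of all 3 libraries. Sgk1, a kinase induced by serum and glucocorticoids, came closest to the threshold at 794 and 609, at 455 and 231, and at 887 and 266 (log2 1.01, SE 0.29, adjusted p = 0.0508 in edgeR). Klf2 and Klf4, transcription factors of flow-exposed endothelium, were higher in positive cells of each library, with log2 fold changes of 0.56 (SE 0.26) and 0.60 (SE 0.27), neither called. They are on a list of shear stress and quiescence, of which 15 genes were tested, 10 with higher and 5 with lower values. Of these Kdr was called higher. Heg1 of the same list was lower in all 3 libraries (log2 -0.67, SE 0.25), not called. Hspb1, a small heat shock protein, was the 1 of 19 heat shock and chaperone genes called higher, at 669 and 500, at 243 and 194, and at 709 and 126 (log2 1.15, SE 0.31, adjusted p = 0.0279 in edgeR). Among all tested genes 0.625% were called higher.

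Gene sums also varied with the number of Cdkn1a UMIs. At 28 months the lung capillary list summed to 10564 UPM in cells with no Cdkn1a UMI before thinning, 20161 in cells that lost theirs to thinning, 32812 in cells with 1 left and 41401 in the 28 cells with 2 or more. The endocardial list ran the other way there, from 6842 over 5237 and 2090 to 429.8. At 20 months the capillary list ran in the same order but over a narrow range, 5876, 6259, 6376 and 6542, and the endocardial list had no such order, with 8101, 7078, 7501 and 7154. At 27 months the groups had 184, 63, 27 and 6 cells. The capillary list summed to 10212, 11286, 17536 and 12525 there, and the endocardial list to 8495, 6746, 5227 and 9018. The immediate early genes summed to 27107, 34724, 36413 and 38336 at 20 months and to 6735, 9119, 10142 and 14505 at 28 months. At 27 months they ran out of order, at 11081.5, 19698, 17462 and 24382. Other p53 targets stayed between 2039 and 2269 at 20 months, between 1837 and 1984 at 27 months and between 1403 and 1703 at 28 months. Cells that lost a UMI to thinning are deeper, with medians of 2520, 5316 and 4046 UMIs at 20, 27 and 28 months. Those of cells without any were 1897, 3026.5 and 3484.

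**Figure D4:**
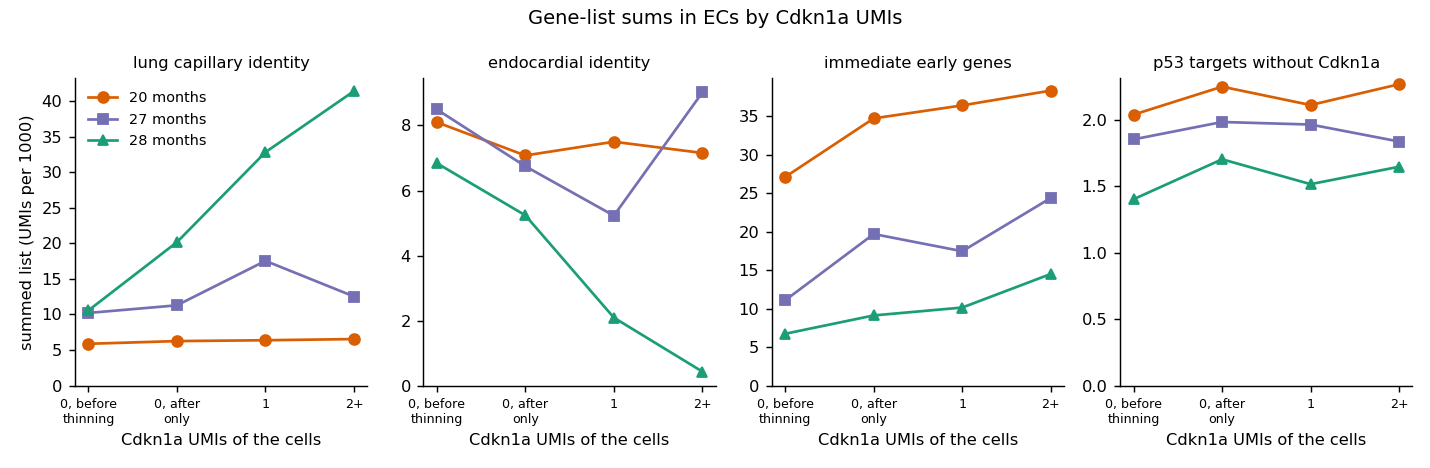
Summed level of 4 gene lists (UMIs per 1000) in ECs grouped by Cdkn1a UMIs before and after thinning, 1 line per library. Capillary genes climb and endocardial genes drop at 28 months, immediate early genes are lowest in cells without Cdkn1a in every library, and p53 targets lie nearly flat.

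Cells with several capillary gene UMIs were counted as a description. ECs were split by whether Car4, Gpihbp1, Rgcc, Cd36 and Tcf15 together had 2 or more UMIs before thinning. These 5 genes were picked because they were higher in positive cells, so the split at 28 months and the loss of capillary calls without these cells follow from the choice and support nothing. The intervals cover counting error among cells of 1 mouse only, and they test no difference in any library. At 28 months 74 of 185 such cells were Cdkn1a-positive (40.0%, exact 95% interval 32.9 to 47.4) and 22 of the 610 others (3.61%, 2.27 to 5.41), under the 5.58% that free RNA would give. The capillary-gene cells made up 77.1% of positive and 15.9% of negative ECs there, at median depths of 2537 UMIs against 3794.5 in the others. At 27 months 8 of 40 (20.0%, 9.05 to 35.6) and 25 of 240 (10.4%, 6.86 to 15.0) were positive. At 20 months the order was the reverse, with 6 of 19 (31.6%, 12.6 to 56.6) and 235 of 516 (45.5%, 41.2 to 50). Capillary-gene cells made up shares of 3.55%, 14.3% and 23.3% of ECs at 20, 27 and 28 months. With these cells left out, 1 gene was called higher and 4 lower, the 4 being hemoglobin genes, and the capillary list had a median of -0.08 over 13 tested genes. Of the 74 genes called with all cells, 50 could still be tested and 45 kept their sign. Immediate early genes had higher values in positive cells for 32 of 38 tested genes without the capillary-gene cells, against 29 with them.

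**Figure D5:**
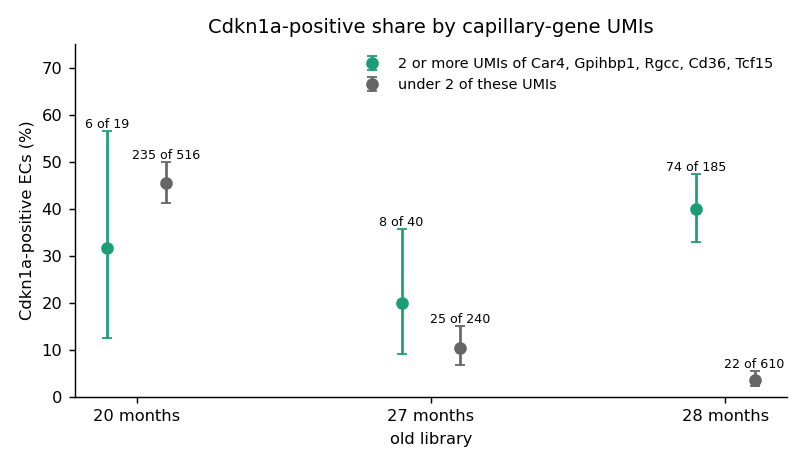
Share of Cdkn1a-positive ECs (%) among cells with 2 or more and with under 2 UMIs of 5 capillary genes, with exact 95% binomial intervals and cell counts. The shares were 40.0% and 3.61% at 28 months. The 5 genes were picked because they were higher in positive cells, so the split is a description, and the intervals cover counting error only.

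To ask what was particular to ECs, the difference between positive and negative cells was compared with that in FBs and in SMCs. Of 8221 genes 0 differed between ECs and FBs (0%), with 353 at an unadjusted p under 0.05, and of 8424 genes 0 differed between ECs and SMCs (0%), with 277. The newer quasi-likelihood method of edgeR also gave 0 in both, with 356 and 316 at that level. Cxcl12 had a log2 fold change of -0.55 in FBs, and the difference of 2.10 (SE 0.48) came closest among the named genes (adjusted p = 0.0947 in edgeR). For Gpc6 the log2 fold change in ECs minus that in FBs was -1.3 (SE 0.37, adjusted p = 0.319 in edgeR). Without the library of 20 months 19 genes differed between ECs and FBs and 7 between ECs and SMCs, and without either of the others 0 did. Most capillary genes were too low in FBs and SMCs to be compared, Car4, Tcf15, Gpihbp1 and Kdr among them. Nothing here can therefore be called particular to ECs by test.

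The remaining lists held few or no called genes. Beside them, 45.6% of all tested genes had higher values in positive cells and 0.625% were called higher. Interferon response genes had higher values in 25 of 33 tested and 0 called, genes of MHC class I in 15 of 21 with 0 called, and apoptosis regulators in 12 of 15 with 0 called. Genes of the vasoactive axis, endothelin, nitric oxide and prostacyclin among its pathways, had lower values in 12 of 15 with 0 called. Ece1, which activates endothelin, was at 719 and 942, at 576 and 830.0, and at 542 and 929.9 (log2 -0.58, SE 0.27, adjusted p = 0.621 in edgeR). For the BMP and TGF-beta pathway, central to the pulmonary artery, 26 genes were tested and 0 called, and for the Notch pathway 15 and 0. Of 18 tested genes of VEGF, angiopoietin and tip cells 2 were called higher, Kdr and Nrp2. Of 23 matrix and mesenchymal genes 1 was called higher, Col4a2, a collagen of the basement membrane, at 66.5 and 68.0, at 273 and 85.0, and at 678 and 182 (log2 1.29, SE 0.35). Its log2 fold change was 0.068 without capillary-gene cells. Most of this list went the other way, with lower values in 15 of the 23. In all 3 libraries 8 were lower (34.8%, against 16.9% of all tested genes). At an unadjusted p under 0.05, 7 were lower and 2 higher. Fn1 (log2 -1.20, SE 0.36) and Bgn (log2 -0.91, SE 0.28) were among the lower, neither called. Respiratory chain genes of the nucleus had higher values in 25 of 47, hypoxia and glycolysis genes in 8 of 26 and antioxidant genes in 10 of 20, with 0 called in each. No gene of proliferation, lymphatic identity, NF-kB, the glucocorticoid response or MHC class II was called in either direction.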

How the data were processed

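The files deposited by the authors hold UMI counts for each gene in each droplet barcode, unfiltered and not normalized. The submitters' processing notes name cutadapt, STAR and STARsolo with build GRCm38.p6. Other steps are given in the labels and the study's methods, namely droplet capture with a 3′ tag kit. Total counts of the 3 libraries used ran from 7042921 to 50436562. Gene symbols are those of the files, whose identifier versions mostly differ from those of the annotation at hand, so positions are given only for RefSeq promoters. Gene spans were matched without the versions.

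The members and gene lists were chosen with earlier results of these data known, by the rule that divides the cells. Cells were thinned without replacement with a fixed seed, counts were summed per library and group, and Cdkn1a was left out of the fit. Genes with at least 30 UMIs over the 6 sums and at least 1 in each library were tested with edgeR 4.0.16 (TMM, robust quasi-likelihood F test with library as a block, default method, which estimated infinite prior degrees of freedom) in R 4.3.3. The pairing comes from the mouse, since both groups of a pair are cells of 1 library. With 3 pairs an exact sign permutation test cannot go below p = 0.25, so none was run. Alternatives numbered 24, of which 3 were added after the data were seen: edgeR's newer quasi-likelihood, no capillary-gene cells and no hemoglobin-rich cells. DESeq2 1.42.0 was 1 of the planned ones. Doublets were marked per library with scrublet through scanpy 1.11.5, which marked 9 of the 1610 ECs, none of them positive, and these were kept. No EC barcode was shared between libraries. Tables were made with Python 3.11.15, numpy 2.4.6, pandas 2.3.3, scipy 1.17.1 and matplotlib 3.10.9.

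Genes named are the 12 largest rises and 12 largest falls among called genes with the same sign in all 3 libraries, the tested p53 targets, and up to 4 genes of smallest p in every other list; any other gene is given as named after its values were seen. The fit was tested on simulated data with 200 genes changed among 7349 to 7382. At 1.5-fold it recovered 0% of them, at 2-fold 3% and at 4-fold 63%, with 0, 0 and 2 false calls. The simulation took its spread from the same fit and was tested by the same method. Its false calls therefore do not check that method or the calls made here.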

Additional observations from a re-analysis of the deposited data

Results flagged for a closer look

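Adgrg1, the adhesion receptor, was higher in Cdkn1a-positive ECs of all 3 libraries while its sums in Cdkn1a-positive SMCs were at 0 in all 3. The difference in log2 fold change between ECs and SMCs was 4.19 (SE 2.94, adjusted p = 1.00 in edgeR), and it did not pass the test. The negative sums of SMCs held 1, 1 and 2 UMIs at 20, 27 and 28 months (8.85, 0.490 and 2.21 per 1000000). At those levels the positive sums would hold 0.150, 0.135 and 0.0948 UMIs, so their sign in SMCs carries no information.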

How the results depend on the processing

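The counts of 47 higher and 27 lower genes depended on the processing, and the causes were not tested. They fell to 0 and 0 with edgeR's newer quasi-likelihood, without the replicate block (library as the pair) and with genes in over 5% of cells (fewer genes tested), with 407, 141 and 149 genes under 0.05 before adjustment. They were 1 and 0 with DESeq2, 0 and 2 with at least 2 Cdkn1a UMIs, 3 and 0 with filterByExpr, 21 and 4 with negative cells free of Cdkn1a before thinning, 2 and 1 with sums before thinning, 29 and 10 under a stricter gate, 17 and 10 without lymphatic cells and 1 and 4 without capillary-gene cells. The higher count was 8 with no gene filter. Other seeds shared 22 to 32 of the 47 higher and 4 to 15 of the 27 lower genes, and thinning to 2000 UMIs shared 15 and 2. The lower count was 10 when thinned to 2000 UMIs, 47 and 14 with other seeds and 16 without hemoglobin-rich cells. Leaving out each library gave 0 to 84 higher and 0 to 49 lower genes. Genes that differed between cell types, 0 in both, numbered 5 for FBs and 4 for SMCs with no TMM, 5 for FBs with another seed, and 0 to 19 and 0 to 7 with each library left out. Of the named called genes, Spire1 turned to -0.70, -1.05 and -1.06 with other seeds. Without capillary-gene cells Cxcl12 was at -0.66 and Fabp4 at -1.22, and without the library of 28 months Cxcl12 was at -0.026, and between that and 2.28 with each library left out. Without hemoglobin-rich cells Hba-a1, Hbb-bt and Hbb-bs were at 0.56, 0.012 and 0.64. In the other tests of the named called genes the direction was kept, 315 times past the threshold and 493 times not. With 33 positive cells at 27 months, 1 UMI decides the value of low genes there.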
